A study of Mus musculus with 32 samples.

Results

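The subunits of the mitochondrial respiratory chain and of ATP synthase were followed through cisplatin injury in mouse kidney. The members were all genes whose symbol starts with Nduf (apart from the Ndufaf assembly factors), Uqcr, Cox4 to Cox8 or Atp5, together with Sdha, Sdhb, Sdhc and Sdhd. That rule found 85 of the 20659 named genes on the array. By their symbols, 38 were placed in complex I, 4 in complex II, 8 in complex III, 18 in complex IV and 17 in complex V. Ndufa4, which carries a complex I symbol and is now known as a complex IV subunit, and its isoform Ndufa4l2 were left where the symbol puts them. Their microarray level was tested for 83, and the remaining members, Cox7b2 and Cox8c, were not well above background on any array.

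Complex I (NADH dehydrogenase) and complex II (succinate dehydrogenase) pass electrons to coenzyme Q, complex III hands them on to cytochrome c, and complex IV (cytochrome c oxidase) gives them to oxygen. Complexes I, III and IV pump protons across the inner mitochondrial membrane, and complex V, ATP synthase, uses the return of those protons to make ATP. The proximal tubule, which takes up cisplatin and carries out most of the kidney's reabsorption, is dense in mitochondria and depends on oxidative phosphorylation. A few subunits are encoded by mitochondrial DNA, and 0 of those 13 genes had a probe named here, so that all values concern nuclear genes and RNA, not protein or respiration.

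The study gave male mice of 12 to 16 weeks 1 intraperitoneal injection. Wild type mice were C57BL/6 animals from Charles River Laboratories, and miR-155-/- mice were of the line B6.Cg-Mir155tm1.1Rsky/J, which came from The Jackson Laboratory and lacks the microRNA miR-155 in all cells from the germline on. The genotypes were matched for age and weight and came from different suppliers, so that miR-155 loss and supplier cannot be told apart. Each genotype had 4 groups of 4 mice: a control group given saline, labelled 0 h, and groups taken 24 h, 48 h and 72 h after 20 mg/kg cisplatin. The 3 cisplatin groups of a genotype share that saline group in the comparisons below. RNA of the whole ground kidney of each mouse was hybridised to its own 1-colour Agilent array, and the values below are log2 processed intensity relative to the 75th percentile of the array, called the level. In such bulk tissue, fewer cells of a type and less RNA per cell cannot be told apart. No probe was named for the Mir155 host gene, so the deletion was not checked.

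Injury and tissue were checked first. Havcr1, the tubular injury marker KIM-1, rose in wild type by 4.46, 5.32 and 5.75 log2 units at the 3 times and in miR-155-/- by 4.08, 5.51 and 7.45. All 18 proximal tubule markers were above background in every group. The share of probes above background ran from 68.0% to 81.8% over the arrays. The array of miR-155-/- 48 h replicate 3 lay farthest from the other 3 of its group, at a root mean square distance of 1.05 log2 units over all genes, followed by miR-155-/- 24 h replicate 3 at 0.889. The other 30 arrays lay at 0.279 to 0.579. Counts and medians of the members without these 2 arrays are given below.

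Promoter sequence was at hand in RefSeq (GRCm38.p6, 250 bases before to 50 after the start) for 69 of the 85 members, with 74 promoters. The letters of 4 factors known for respiratory genes were searched on both strands. GCGCATGCG, for NRF1, stood in 8 of 74 member promoters (10.8%) and in 575 of all 32851 promoters (1.75%). CCGGAAG, for GABPA, stood in 17 (23%) against 8.86% of all promoters. AAGATGGC, for YY1, stood in 10 (13.5%) against 2.75%, and TCAAGGTCA, for the estrogen-related receptors, in 2 (2.7%) against 0.423%. A match is a description of letters, not a bound site. Below are the promoters of Uqcr11, a member of complex III that was lower in all 6 comparisons with saline, and of Cox6b1 and Cox6b2, 2 isoforms of 1 complex IV subunit that moved in opposite directions at 24 h in wild type. They lie on the minus strand at chr10:80406772-80407071, chr7:30626065-30626364 and chr7:4753045-4753344, and capitals mark the letters of NRF1 and GABPA. Uqcr11 carries both kinds of match, Cox6b1 the GABPA letters, and Cox6b2 none of the 4.
Uqcr11: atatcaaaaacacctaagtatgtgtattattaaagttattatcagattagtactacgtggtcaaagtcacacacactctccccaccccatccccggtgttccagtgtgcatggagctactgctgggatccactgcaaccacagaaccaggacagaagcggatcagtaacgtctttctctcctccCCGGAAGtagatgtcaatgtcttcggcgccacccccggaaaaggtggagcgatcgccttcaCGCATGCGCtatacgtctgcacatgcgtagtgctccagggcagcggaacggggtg
Cox6b1: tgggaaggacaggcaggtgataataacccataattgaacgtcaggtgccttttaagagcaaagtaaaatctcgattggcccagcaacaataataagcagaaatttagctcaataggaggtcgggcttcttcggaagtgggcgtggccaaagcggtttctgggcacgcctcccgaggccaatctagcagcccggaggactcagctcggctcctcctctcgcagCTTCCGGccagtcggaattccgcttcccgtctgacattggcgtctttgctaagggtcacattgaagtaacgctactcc
Cox6b2: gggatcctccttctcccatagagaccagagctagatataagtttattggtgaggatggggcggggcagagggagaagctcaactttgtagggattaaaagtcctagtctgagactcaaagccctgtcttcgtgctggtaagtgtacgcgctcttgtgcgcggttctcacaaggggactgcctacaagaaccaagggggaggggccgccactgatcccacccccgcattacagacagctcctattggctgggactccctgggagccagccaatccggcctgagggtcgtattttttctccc

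In wild type kidney 24 h after cisplatin, most of the respiratory chain was lower than after saline. Of 83 members 60 were lower and 1 was higher by limma at an adjusted p under 0.05, against 17.6% of all 23759 genes and transcripts lower and 21% higher. All 4 members of complex II fell, as did 24 of 38 of complex I, 6 of 8 of complex III, 10 of 16 of complex IV and 16 of 17 of complex V. The median difference over the members was -0.33 log2 units, and 81 of 83 lay below 0, while the median over all genes was 0.07. Bright genes as a whole did not go this way. Among 1033 other genes with a mean level between the members' lower and upper quartiles, 4.17 and 5.84, the median was 0.12, with 19.8% lower and 29.2% higher.

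At 48 h in wild type 24 members were lower and 2 higher (all genes 11.6% and 12.2%), with a median of -0.17. This count rested in part on wild type 48 h replicate 2, without which 14 members were called, 12 of them lower. At 72 h 13 were lower and 4 higher (all genes 12.8% and 12.5%), with a median of -0.09. The 1033 other genes as bright had medians of 0.10 at 48 h and 0.15 at 72 h. From 24 h to 72 h within wild type, a comparison that shares its 24 h mice with the first one, 49 members rose and 2 fell, against 11.9% and 14.7% of all genes. Without wild type 24 h replicate 4 that count was 29 called, 28 of them higher, and without wild type 72 h replicate 3 it was 32, with 30 higher. For 71 of the 83 members the wild type difference from saline was lowest at 24 h (85.5%, all genes 36.2%).

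In miR-155-/- kidney fewer members passed the test at 24 h than at 48 h and 72 h, an order that did not hold under every check below. At 24 h 26 of 83, or 31.3%, were lower and 2 higher (all genes 22.5% and 26.6%). At 48 h 39 were lower and 2 higher (all genes 21.1% and 22.7%), and at 72 h again 39 and 2 (all genes 17.5% and 17.7%). The medians were -0.20, -0.25 and -0.26. Those of the 1033 other genes as bright were 0.23, 0.16 and 0.12, so that relative to them the members were not least low at 24 h. From 24 h to 72 h only 4 members rose and 7 fell, against 13.6% and 18.3% of all genes. The other genes as bright had a median of -0.12 in that comparison. The difference from saline was lowest at 24 h for 17 members (20.5%, all genes 33.1%), at 48 h for 23 (27.7%, all genes 24.6%) and at 72 h for 43 (51.8%, all genes 42.2%). Without miR-155-/- 24 h replicate 3 the 24 h counts were 33 lower and 2 higher with a median of -0.25, and from 24 h to 72 h 5 members were lower and 5 higher with a median of -0.039, against -0.077 with it. Without miR-155-/- 48 h replicate 3 the 48 h counts were 28 and 2, with a median of -0.23. Those 28 are fewer than the 33 lower at 24 h without its own replicate 3.

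**Figure D1:**
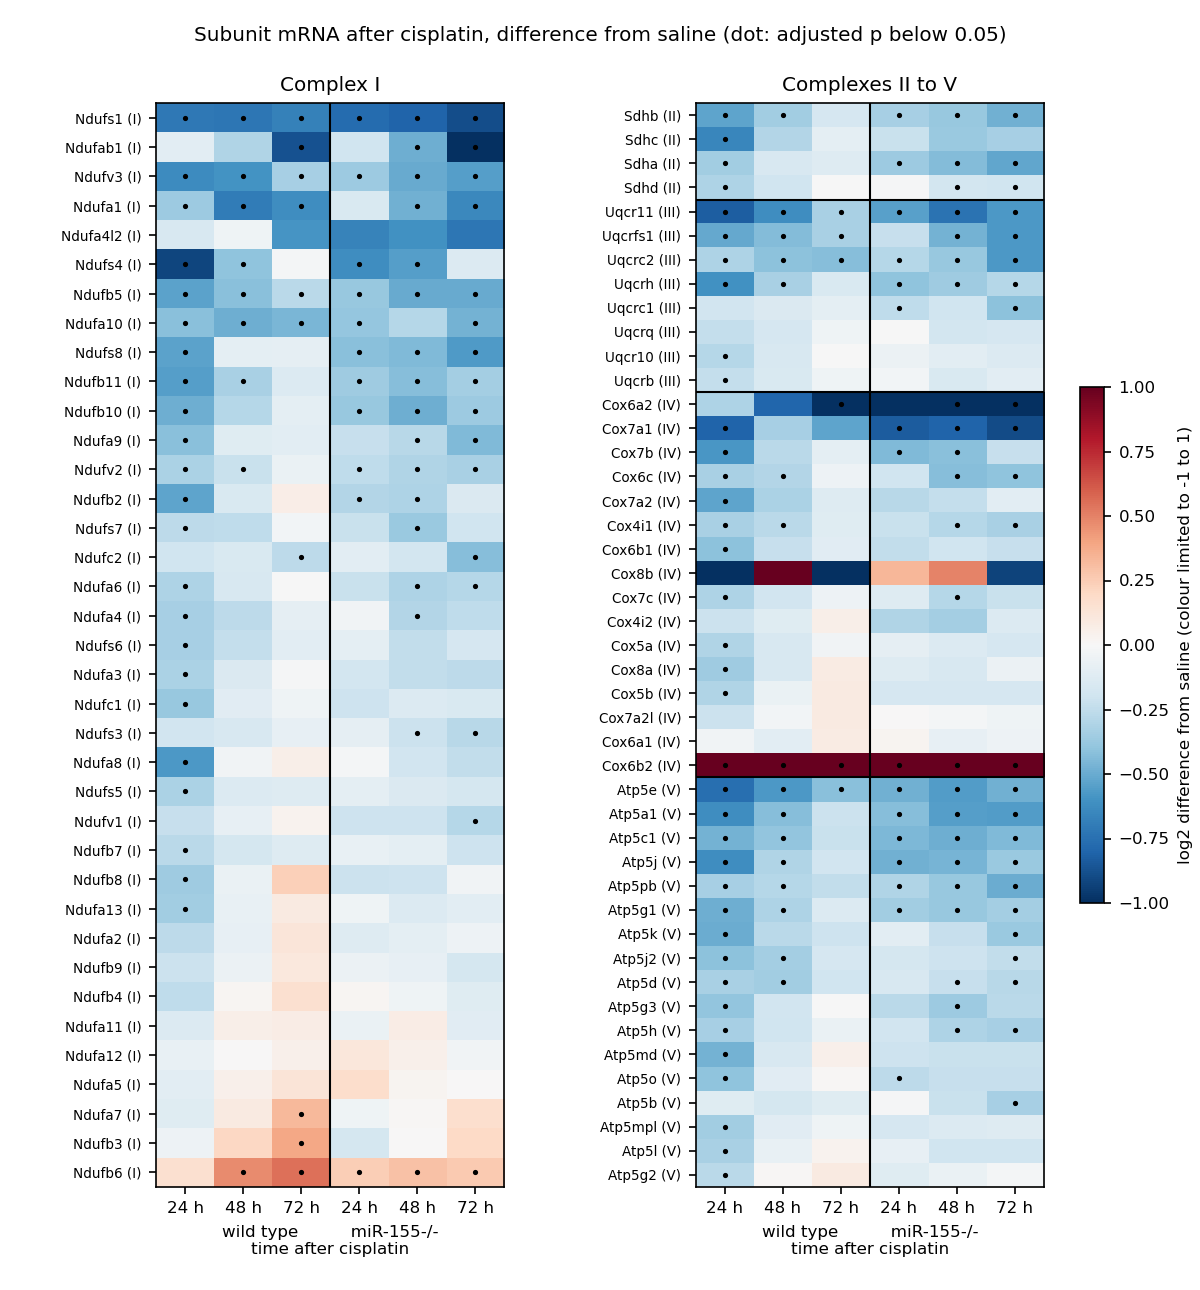
Difference from saline in log2 units of 82 of the 83 tested members (rows, by complex) in the 6 comparisons of cisplatin with saline (columns). Blue is lower and red higher, colours end at -1 and 1, and a dot marks an adjusted p under 0.05 by limma; the wild type 24 h column holds 60 dots and the wild type 72 h column 16.

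The mean over all members, as a difference from the mean of the genotype's saline mice, shows the same course mouse by mouse. In wild type it was -0.37, -0.35, -0.30 and -0.40 at 24 h (replicates 1 to 4, the order used throughout), then -0.15, -0.31, -0.06 and -0.10 at 48 h and -0.07, -0.11, 0.00 and -0.19 at 72 h. In miR-155-/- it was -0.18, -0.30, -0.11 and -0.21 at 24 h, -0.25, -0.07, -0.40 and -0.26 at 48 h and -0.28, -0.28, -0.33 and -0.25 at 72 h. The saline mice themselves ran from -0.11 to 0.11 in wild type and from -0.13 to 0.11 in miR-155-/-. So every wild type mouse at 24 h and every miR-155-/- mouse at 72 h lay below all saline mice of its genotype, whereas 3 of the 4 wild type mice at 72 h lay at or above the lowest saline mouse.

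**Figure D2:**
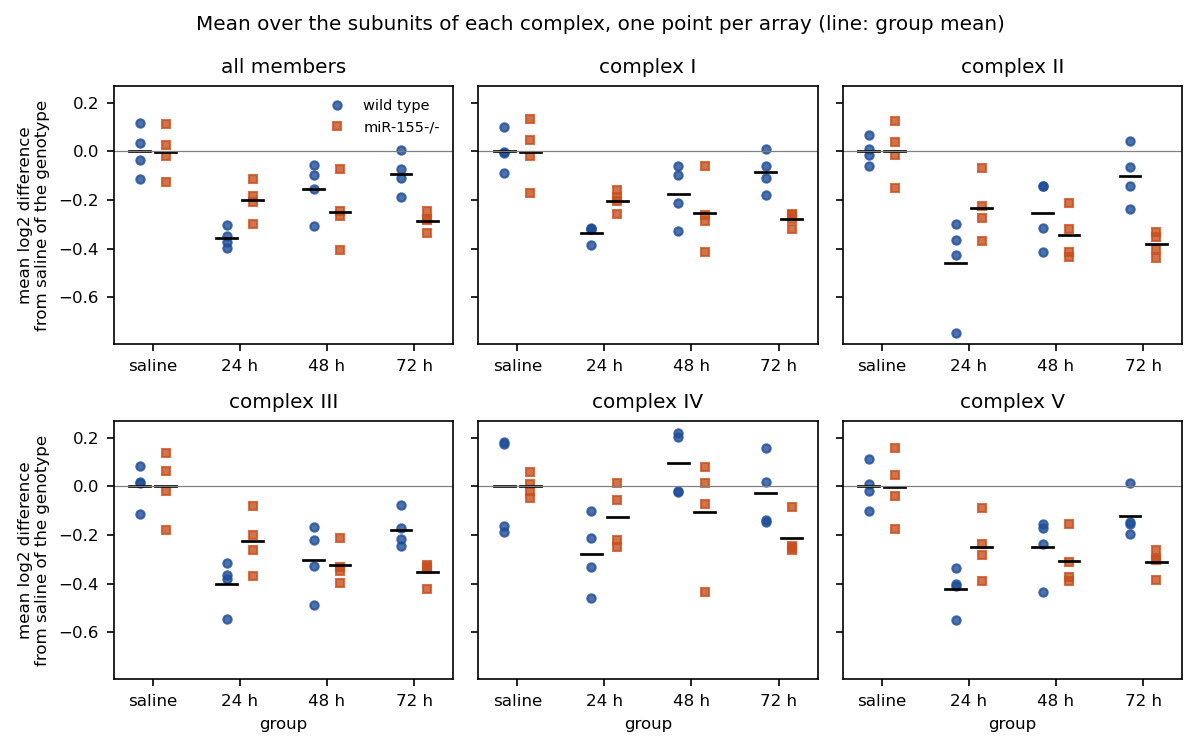
Mean difference from saline over the members of all complexes and of complexes I to V, in log2 units, 1 point per array, against time, with wild type and miR-155-/- side by side. Wild type means are lowest at 24 h, from -0.40 to -0.30 over all members, and miR-155-/- means at 72 h lie between -0.33 and -0.25.

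How many members were called depended on the background correction and scaling, and most of all at 24 h in miR-155-/-, where the 28 called became 9 with normexp and 61 with quantile normalization. In wild type at 24 h the 61 called became 32 with normexp and also with scaling to the array median. The median over the members was below 0 in each of the 6 comparisons under each of 11 alternatives. Some of these could not move it: leaving out the trend or fitting the compared groups alone changes the test and not the group means. The replicate block gave the same wild type medians as reported. In wild type it ranged from -0.38 to -0.28 at 24 h, -0.20 to -0.14 at 48 h and -0.17 to -0.046 at 72 h, and in miR-155-/- from -0.30 to -0.11, -0.43 to -0.24 and -0.32 to -0.25. With quantile normalization the wild type median at 72 h (-0.17) was not above that at 48 h (-0.15). In miR-155-/- the time order of the counts was then reversed, with 61, 56 and 53 called at 24 h, 48 h and 72 h. The medians there were -0.301, -0.270 and -0.295. The 32 arrays lay on 8 slides read on 2 scan days. In wild type the scan days of replicates 1 to 4 were 1, 2, 2 and 2 after saline, 2, 1, 1 and 1 at 24 h and 1, 1, 1 and 2 at 72 h. Scan day and cisplatin were therefore partly confounded there. With slide as a block the wild type 24 h median was -0.35. Each comparison within a slide set 1 mouse against 1 mouse. On the 1 slide with wild type saline and 24 h mice the median was -0.42. On the slides with miR-155-/- saline mice it was -0.01 and -0.32 against 24 h, -0.31 against 48 h and -0.28 and -0.16 against 72 h, and on those with wild type saline mice -0.09 and -0.29 against 48 h. No slide held wild type saline and 72 h mice, and with slide as a block the median there was -0.082.

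The 7 core members of complex I, which hold the flavin, the iron-sulfur clusters and the coenzyme Q site of its peripheral arm, were lower in 5, 3 and 2 cases in wild type at 24 h, 48 h and 72 h and in 4, 6 and 6 in miR-155-/-. Ndufs1, the largest iron-sulfur subunit, stood low at every time. Its level was 4.88, 4.79, 4.90 and 4.98 in wild type saline mice, 4.19, 4.20, 4.23 and 4.05 at 24 h, 3.90, 3.92, 4.48 and 4.36 at 48 h and 4.22, 4.31, 4.10 and 4.22 at 72 h. The miR-155-/- levels were 4.89, 4.95, 4.74 and 4.93 after saline, 4.19, 4.12, 4.11 and 4.02 at 24 h, 4.19, 4.24, 3.75 and 4.12 at 48 h and 3.84, 3.98, 3.96 and 4.19 at 72 h. No cisplatin mouse of either genotype overlapped its saline group. The fall was 0.72 ± 0.11, 0.72 ± 0.11 and 0.68 ± 0.11 log2 units in wild type and 0.77 ± 0.11, 0.80 ± 0.11 and 0.89 ± 0.11 in miR-155-/- (standard error, n = 4 a group), with adjusted p by limma between 4.23e-07, in miR-155-/- at 72 h, and 3.49e-05, in wild type at 72 h. Ndufv1, the NADH-binding subunit, fell in miR-155-/- at 72 h alone (-0.28).

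Ndufs4, an accessory subunit at the NADH-oxidising end whose loss causes Leigh syndrome, had a different course. Wild type levels were 4.02, 3.96, 3.92 and 3.92 after saline, 3.19, 2.85, 3.15 and 2.94 at 24 h, 3.53, 3.39, 3.64 and 3.65 at 48 h and 3.97, 3.90, 3.97 and 3.90 at 72 h. The 24 h and 48 h mice lay below the saline range, and the 72 h mice overlapped it. At 24 h this was the largest fall of a complex I member in wild type, 0.92 ± 0.10 log2 units or 1.89-fold (adjusted p 3.84e-08, limma). It then rose by 0.90 ± 0.10 from 24 h to 72 h (adjusted p 1.23e-07, limma). In miR-155-/- it fell by 0.62 at 24 h and 0.55 at 48 h, and at 72 h the difference was -0.14 (adjusted p 0.313, limma).

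Ndufab1, the mitochondrial acyl carrier protein, which also serves lipoic acid and iron-sulfur cluster synthesis, had its lowest mean at 72 h in both genotypes. Its wild type level was 0.97, 1.04, 1.06 and 1.01 after saline, 0.93, 0.87, 0.98 and 0.86 at 24 h, 0.79, 0.70, 0.69 and 0.69 at 48 h and 0.14, 0.18, 0.26 and -0.01 at 72 h. In miR-155-/- the 3 saline values left after removal of an outlier spot ran from 0.97 to 1.05, the 48 h values were 0.77, 0.89, -0.26 and 0.67 and the 72 h values 0.00, -0.01, -0.13 and 0.09. At 72 h both genotypes lay clear of their saline mice, with falls of 0.87 ± 0.16 (1.83-fold, adjusted p 0.000104, limma) and 1.02 ± 0.17 (2.03-fold, adjusted p 2.47e-05, limma). At 24 h the differences were -0.11 and -0.20, neither past the threshold. At 48 h the wild type difference of -0.30 was not past it, and the fall of 0.49 in miR-155-/- (adjusted p 0.0195, limma) was 0.23 without replicate 3 (adjusted p 0.099, limma).

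Ndufb6, an accessory subunit of the membrane arm, rose instead. Wild type levels were 4.39, 4.18, 4.34 and 4.31 after saline, 4.45, 4.45, 4.53 and 4.44 at 24 h, 4.80, 4.64, 4.79 and 4.87 at 48 h and 4.81, 4.83, 5.03 and 4.76 at 72 h. At 48 h and 72 h all mice lay above the saline range, with rises of 0.47 ± 0.09 (adjusted p 0.000264, limma) and 0.55 ± 0.09 (adjusted p 3.11e-05, limma). A second, dimmer probe gave 0.47 and 0.55. In miR-155-/- the rises were 0.25, 0.29 and 0.26, with adjusted p of 0.024, 0.0102 and 0.0243 by limma. Each of those 3 calls could be lost by leaving out a single array. That held at 48 h without miR-155-/- 48 h replicate 2 (adjusted p 0.0549, limma). It held at 72 h without replicate 2 (adjusted p 0.105, limma), 3 (0.0594) or saline replicate 3 (0.076) or 4 (0.0558). It also held at 24 h without replicate 1 (adjusted p 0.0501, limma), 4 (0.0615) or saline replicate 3 (0.0754) or 4 (0.0532). Ndufb3 and Ndufa7, both accessory subunits, rose in wild type at 72 h alone, by 0.39 and 0.33.

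**Figure D3:**
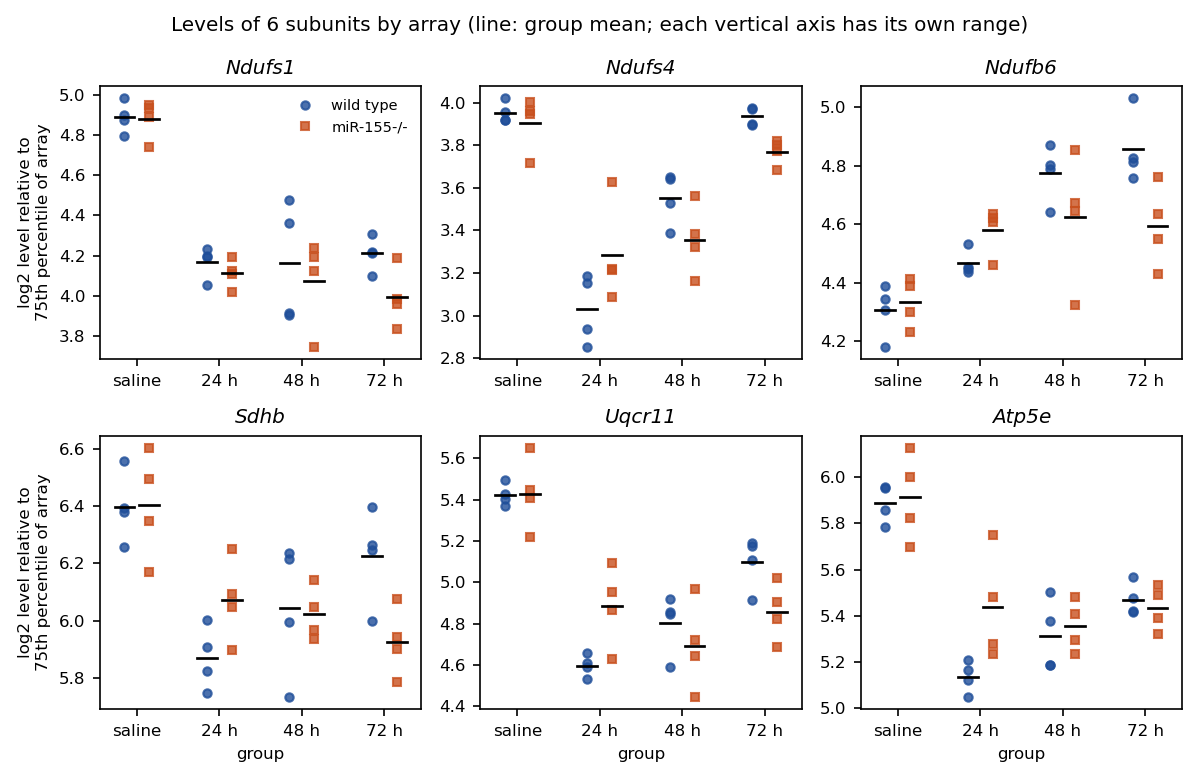
Level (log2 intensity relative to the array's 75th percentile) of Ndufs1, Ndufs4, Ndufb6, Sdhb, Uqcr11 and Atp5e on each array, with the group mean as a bar, by time and genotype. Ndufs1 stays below saline at all 3 times, Ndufs4 in wild type overlaps its saline range again at 72 h, and Ndufb6 lies above saline in wild type at 48 h and 72 h.

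Complex II is the only complex of the chain encoded wholly in the nucleus and is also an enzyme of the citric acid cycle. Sdha, its flavoprotein, was 5.29, 5.18, 5.28 and 5.23 in wild type saline mice, 4.97, 4.84, 4.97 and 4.84 at 24 h, 5.07, 4.93, 5.21 and 5.14 at 48 h and 5.23, 4.99, 5.29 and 4.95 at 72 h. In miR-155-/- mice Sdha was 5.48, 5.25, 5.21 and 5.35 after saline, 5.08, 4.84, 4.99 and 4.93 at 24 h, 4.92, 5.10, 4.63 and 4.89 at 48 h and 4.79, 4.84, 4.68 and 4.90 at 72 h. Wild type mice overlapped their saline group at 48 h and 72 h, and miR-155-/- mice did not at any time. The fall was 0.34 ± 0.09 at 24 h in wild type (adjusted p 0.0037, limma), and in miR-155-/- it was 0.36, 0.44 and 0.52 ± 0.09 at 24 h, 48 h and 72 h (adjusted p 5.09e-05 at 72 h, limma).

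Sdhb, the iron-sulfur subunit, was 6.56, 6.26, 6.39 and 6.38 in wild type after saline, 5.82, 5.91, 6.00 and 5.75 at 24 h, 6.00, 5.73, 6.21 and 6.24 at 48 h and 6.26, 6.25, 6.40 and 6.00 at 72 h. It fell by 0.53 ± 0.11 at 24 h (adjusted p 0.000337, limma) and by 0.35 at 48 h, a call that was lost without wild type 0 h replicate 1 (adjusted p 0.0719, limma) or wild type 48 h replicate 2 (0.115). In miR-155-/- it fell by 0.33, 0.38 and 0.48, and the 24 h call was lost without miR-155-/- 0 h replicate 1 (adjusted p 0.0601, limma) or 24 h replicate 2 (0.052). The membrane anchors were less clear. Sdhc was 4.08, 4.13, 4.13 and 4.12 in wild type after saline and 3.85, 3.59, 3.81 and 2.59 at 24 h, so that 1 mouse stood far below the other 3, and the fall of 0.65 was 0.37 without it (adjusted p 0.00505, limma). Sdhc passed the threshold in no other comparison with saline, where the differences lay between -0.37 and -0.10. Sdhd, at 4.57, 4.43, 4.46 and 4.44 after saline and 4.14, 4.19, 4.26 and 4.07 at 24 h in wild type, fell by 0.31 ± 0.08 with no overlap. Its falls in miR-155-/- of 0.19 at 48 h and 0.20 at 72 h, with adjusted p of 0.0453 and 0.0435 by limma, were each lost on leaving out any of several single arrays, with adjusted p up to 0.161 at 48 h (without 48 h replicate 4) and 0.119 at 72 h (without saline replicate 1).

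In complex III, Uqcr11, a small accessory subunit, showed the largest fall at 24 h and 48 h in both genotypes. Its level was 5.49, 5.37, 5.41 and 5.43 in wild type after saline, 4.61, 4.59, 4.66 and 4.53 at 24 h, 4.86, 4.59, 4.85 and 4.92 at 48 h and 5.18, 5.11, 5.19 and 4.91 at 72 h. Levels in miR-155-/- were 5.65, 5.45, 5.22 and 5.41 after saline, 4.87, 4.63, 5.09 and 4.95 at 24 h, 4.64, 4.97, 4.45 and 4.72 at 48 h and 5.02, 4.82, 4.69 and 4.90 at 72 h. No cisplatin mouse overlapped the saline mice of its genotype. The falls were 0.83 ± 0.11 (1.77-fold, adjusted p 6.19e-07, limma), 0.62 and 0.33 in wild type and 0.55, 0.74 ± 0.11 (adjusted p 3.94e-06, limma) and 0.57 in miR-155-/-.

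The largest complex III falls at 72 h were those of Uqcrc2, a core protein, in wild type and of Uqcrfs1, the Rieske iron-sulfur protein that passes electrons towards cytochrome c, in miR-155-/-. Uqcrc2 was 5.23, 5.16, 5.27 and 5.26 after saline and 4.75, 4.84, 4.84 and 4.80 at 72 h in wild type, a fall of 0.43 ± 0.08 (adjusted p 0.000272, limma). Uqcrfs1 was 5.39, 5.32, 5.27 and 5.43 after saline and 4.69, 4.81, 4.81 and 4.80 at 72 h in miR-155-/-, a fall of 0.58 ± 0.12 (adjusted p 0.000302, limma). In both cases the groups were far apart. Uqcrc2 differed from saline by -0.31, -0.41 and -0.43 over time in wild type, and its difference between 72 h and 24 h, -0.12, was not past the threshold. Uqcrq, which sits beside cytochrome b, passed it in no comparison with saline.

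Complex IV held the largest changes, and they fell on isoforms known from tissues other than kidney. Cox6b2, the testis form of subunit 6b, was -1.95, -1.60, -1.79 and -1.57 in wild type after saline, -0.28, 0.30, 0.17 and 0.37 at 24 h, 1.36, 1.47, 1.57 and 1.68 at 48 h and 1.81, 2.28, 2.19 and 2.24 at 72 h. The miR-155-/- mice had -2.09, -2.09, -2.23 and -1.74 after saline, -0.15, -0.25, -0.80 and 0.28 at 24 h, 1.15, 1.26, -0.77 and 1.22 at 48 h and 1.76, 1.92, 2.15 and 1.72 at 72 h. Every cisplatin mouse lay above every saline mouse of its genotype. The rise in wild type was 3.65-fold at 24 h, 9.48-fold at 48 h and 14.5-fold at 72 h, or 1.87 ± 0.28, 3.25 ± 0.28 and 3.86 ± 0.28 log2 units (adjusted p 7.31e-06, 1.52e-09 and 5.14e-11, limma). The miR-155-/- rise was 3.5-fold, 6.73-fold and 15.2-fold (adjusted p 2.32e-11 at 72 h, limma). Its probe exceeded the background on each of the 32 arrays. Within wild type the level also rose from 24 h to 72 h, by 1.99 ± 0.28 (adjusted p 5.05e-06, limma).

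Its common partner isoform did not follow. Cox6b1 was 1.65, 1.35, 1.45 and 1.45 in wild type after saline and 0.98, 1.08, 1.10 and 1.12 at 24 h, a fall of 0.41 ± 0.11 (adjusted p 0.0034, limma), and its other 5 differences from saline, between -0.24 and -0.11, were not past the threshold, although without miR-155-/- 24 h replicate 3 the 24 h difference there was -0.33 (adjusted p 0.0121, limma). Levels of different probes cannot be set against each other, so that the share of Cox6b2 in the subunit was not measured.

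Cox6a2, the heart and skeletal muscle form of subunit 6a, had its lowest mean at 72 h in both genotypes. At 24 h the differences were -0.31 in wild type (adjusted p 0.666, limma) and -1.17 in miR-155-/- (adjusted p 0.0571, limma), neither past the threshold. Its levels were low, so the size of a fall is less certain than its direction. It was -1.67, -1.64, -1.73 and -1.39 in wild type after saline and -2.71, -3.85, -3.55 and -3.97 at 72 h, and in miR-155-/- it was -1.42, -1.28, -0.93 and -0.51 after saline and -4.50, -4.64, -5.10 and -3.30 at 72 h. At 72 h no mouse overlapped saline in either genotype, and the fall was 1.91 ± 0.51 (3.77-fold, adjusted p 0.00544, limma) in wild type and 3.35 ± 0.51 (10.2-fold, adjusted p 6.81e-06, limma) in miR-155-/-. At 48 h in miR-155-/- the values were -1.20, -1.84, -4.38 and -2.19, and the fall of 1.36 was 0.70 without replicate 3 (adjusted p 0.237, limma) and was also lost without saline replicate 3 (0.059) or 4 (0.0882). Cox6a1, the common form, differed from saline by -0.11 to 0.08 and passed the threshold in none of the 6 comparisons.

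Cox7a1, the heart and muscle form of subunit 7a, was 2.65, 2.26, 2.36 and 2.66 in wild type after saline, 1.73, 1.55, 1.90 and 1.54 at 24 h, 2.10, 1.88, 2.39 and 2.25 at 48 h and 2.13, 2.07, 1.98 and 1.66 at 72 h. The corresponding miR-155-/- levels were 2.72, 2.73, 2.35 and 2.12 after saline, 1.97, 1.98, 1.04 and 1.59 at 24 h, 1.98, 2.57, 0.10 and 2.07 at 48 h and 1.67, 1.60, 1.05 and 2.0 at 72 h. Most cisplatin mice were low, with 1 very low mouse at 48 h in miR-155-/-. It fell by 0.80 at 24 h in wild type and by 0.83, 0.80 and 0.90 in miR-155-/-, with adjusted p of 0.0431, 0.0289, 0.0398 and 0.0261 by limma. All 4 calls were lost on leaving out single arrays. Without miR-155-/- 48 h replicate 3 the 48 h difference was -0.27 (adjusted p 0.359, limma), and without miR-155-/- 24 h replicate 3 the 24 h difference was -0.63 (0.119). The 72 h call was lost without miR-155-/- 72 h replicate 3 (0.105), and that of wild type at 24 h when any 1 of 6 arrays was left out, with adjusted p up to 0.0961 without wild type 0 h replicate 4.

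Markers of the tissues these isoforms are known from were looked at beside them. Of 10 striated muscle markers 3 were tested, and the summed level of the 10 ran from -2.65 to -1.96 in wild type saline mice, from -2.98 to -2.78 at wild type 72 h, from -2.60 to -2.18 in miR-155-/- saline mice and from -2.79 to -2.33 at miR-155-/- 72 h. Of those 10 markers 5 were above background on no saline array of wild type. In the miR-155-/- 48 h group, whose replicate 3 was lowest for Cox6a2, Cox7a1 and Cox6b2, the summed level of 7 red blood cell markers also spread widely, from -0.14 to 6.95. The part of these markers in the changes was not tested.

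The other isoforms did not pass the threshold in any comparison with saline. Cox4i2 and Ndufa4l2, both known from low oxygen, differed from saline by -0.34 to 0.06 and by -0.72 to -0.04. Without miR-155-/- 24 h replicate 3 the Cox4i2 difference at 24 h was -0.47 (adjusted p 0.0204, limma). Cox8b, the muscle and brown fat form of subunit 8, ranged from -8.62 to -0.77 over the 32 arrays, well above background on 26 of them, with saline values of -2.90, -6.80, -6.91 and -2.09 in wild type. Its 6 differences from saline lay between -1.63 and 1.61. The summed level of 11 fat markers also spread widely, from 2.04 to 5.11 over the groups.

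**Figure D4:**
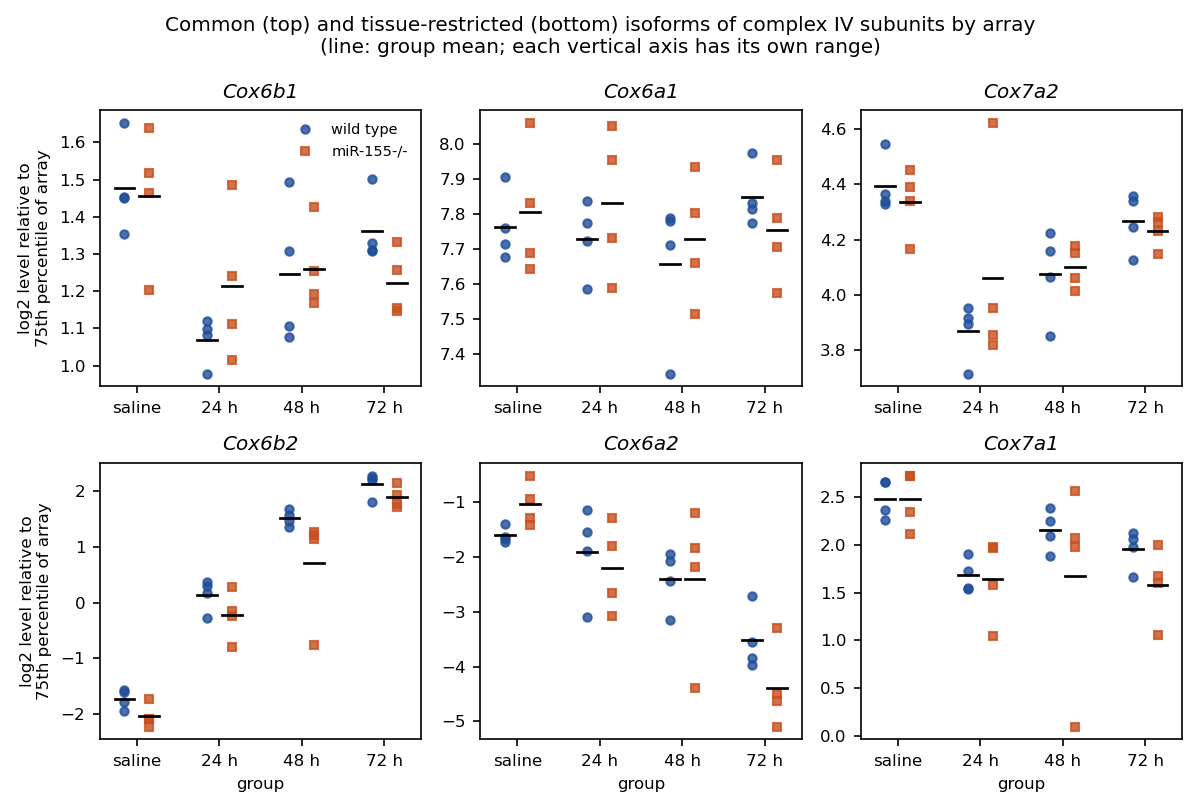
Level of the common isoforms Cox6b1, Cox6a1 and Cox7a2 (top) and of Cox6b2, Cox6a2 and Cox7a1 (bottom) on each array, by time and genotype, with group means as bars. Cox6b2 in wild type climbs from between -1.95 and -1.57 after saline to between 1.81 and 2.28 at 72 h, whereas Cox6a2 is lowest at 72 h in both genotypes.

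Among the common subunits of complex IV, 8 fell in wild type at 24 h apart from Cox6b1 and Cox7a1. Cox7b fell by 0.58 and Cox7a2 by 0.52. Cox6c, at 6.34, 6.15, 6.25 and 6.29 after saline and 5.92, 5.76, 6.11 and 6.05 at 48 h in wild type, had the largest fall of the complex at that time, 0.29 ± 0.10 (adjusted p 0.0322, limma), and the call was lost when any 1 of 5 arrays was left out, with adjusted p up to 0.143 without wild type 48 h replicate 2. In miR-155-/- Cox6c fell by 0.42 at 48 h and 0.40 at 72 h. Cox7a2l was within -0.21 to 0.09 of saline with no call, and lacked a value on 1 array.

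In complex V 16 of 17 members fell in wild type at 24 h, the exception being Atp5b, the catalytic beta subunit. Atp5b fell in miR-155-/- at 72 h alone (-0.33). Atp5e, the small epsilon subunit of the central stalk, led the falls in 4 comparisons. It was 5.96, 5.79, 5.86 and 5.96 in wild type after saline, 5.21, 5.16, 5.12 and 5.05 at 24 h, 5.18, 5.19, 5.50 and 5.38 at 48 h and 5.42, 5.57, 5.48 and 5.41 at 72 h. Among miR-155-/- mice the levels were 6.13, 6.00, 5.70 and 5.82 after saline, 5.23, 5.28, 5.75 and 5.48 at 24 h, 5.23, 5.48, 5.29 and 5.41 at 48 h and 5.53, 5.39, 5.32 and 5.49 at 72 h. In wild type all cisplatin mice lay below saline, and in miR-155-/- only replicate 3 at 24 h reached the saline range. The falls were 0.75 ± 0.10 (1.69-fold, adjusted p 9.6e-07, limma), 0.58 and 0.42 ± 0.10 (adjusted p 0.00232, limma) in wild type and 0.48, 0.56 ± 0.10 (adjusted p 6.38e-05, limma) and 0.48 in miR-155-/-.

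Atp5j, coupling factor 6 of the peripheral stalk, had the largest complex V fall at 24 h in miR-155-/-, from 5.12, 5.01, 4.97 and 5.06 after saline to 4.69, 4.47, 4.68 and 4.39, or 0.48 ± 0.10 (adjusted p 0.00017, limma). Atp5a1, the alpha subunit, had the largest at 72 h there, from 6.71, 6.53, 6.29 and 6.45 to 5.93, 5.94, 5.84 and 6.05, or 0.56 ± 0.11 (adjusted p 0.000221, limma). Neither gene's groups overlapped. In wild type Atp5a1 was 6.62, 6.32, 6.38 and 6.41 after saline, 5.69, 5.86, 6.03 and 5.65 at 24 h and 6.28, 6.02, 6.48 and 6.08 at 72 h, and its difference went from -0.62 at 24 h to -0.22 at 72 h, when it was not past the threshold. Of the 3 genes for the membrane ring subunit c, Atp5g1 fell in all comparisons but wild type 72 h, by 0.31 to 0.49, Atp5g3 fell in 2 and Atp5g2 in wild type at 24 h alone. At 48 h in miR-155-/- the calls of Atp5g1 and Atp5g3 were lost without replicate 3 (adjusted p 0.0541 and 0.0581, limma).

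Members fell into groups by when they were low. In wild type 36 members (43.4%, all genes 7.98%) were lower at 24 h and not at 48 h or 72 h, and in miR-155-/- 1 was (1.2%, all genes 5.13%). Lower at all 3 times were 10 members in wild type (12%, all genes 6.42%) and 20 in miR-155-/- (24.1%, all genes 10.8%). Of these 7 were shared (8.43%, all genes 5.2%), among them Ndufs1, Uqcr11, Uqcrc2 and Atp5e. Lower at 72 h alone were Cox6a2, Ndufab1 and Ndufc2 in wild type (3.61%, all genes 3.29%) and 5 members in miR-155-/- (6.02%, all genes 3.57%), Atp5b, Atp5j2, Atp5k, Ndufc2 and Ndufv1, shares near those of all genes. A further 20 members (24.1%, all genes 76.3%) were lower at no time in wild type and 36 (43.4%, all genes 69.6%) in miR-155-/-. These are counts at a threshold, and the genotypes were compared directly as follows.

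No member passed the threshold between the genotypes by limma at any time. At 0 h, 24 h, 48 h and 72 h 0 of 83 were called, against 0.114%, 0.08%, 0.101% and 0.72% of all genes, and the difference in response (the interaction) was called for 0 of 83 at each time, against 0%, 0% and 0.215%. At an unadjusted p under 0.05, 0 members differed at 0 h. At 24 h 29 did, all higher in miR-155-/- (34.9%, against 9.3% of all genes), at 48 h 3 (3.61%, against 15.1%) and at 72 h 28, all lower (33.7%, against 10.9%). For the interaction the counts were 5 (6.02%, against 3.31%), 1 (1.2%, against 7.16%) and 10 (12%, against 7.58%). The smallest adjusted p at 72 h was that of Sdha, 0.111 by limma for a difference of -0.31 ± 0.09, with all 4 miR-155-/- mice below all 4 wild type mice.

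The members' differences were also summarised by their median. The median difference of miR-155-/- from wild type was 0.01 at 0 h, 0.15 at 24 h, -0.05 at 48 h and -0.19 at 72 h, when 82 of 83 lay below 0. Members on 1 array share its scaling and are not independent, so these medians carry no test. At 24 h the 1033 other genes as bright as the members had the same median of 0.15, and at 72 h they had -0.02. With quantile normalization the medians were 0.01 at 24 h, -0.11 at 48 h and -0.14 at 72 h, and with normexp 0.22, -0.26 and -0.28. Without miR-155-/- 24 h replicate 3 the 24 h median was 0.11, and without miR-155-/- 48 h replicate 3 the 48 h median was -0.028. Within the 3 slides that held both genotypes at 72 h, 1 mouse of each, the median was -0.18, -0.28 and -0.14. On the slides with both at 48 h it was -0.22 and -0.01, on that with both at 24 h 0.17, and after saline 0.05, 0.06 and 0.05. With limma's array weights 28 members were called at 72 h, all lower, and 2 in the interaction at 72 h, whereas 0 were called under the other 10 alternatives or on leaving out any 1 array. A p that misses the threshold does not show that the genotypes were alike.

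**Figure D5:**
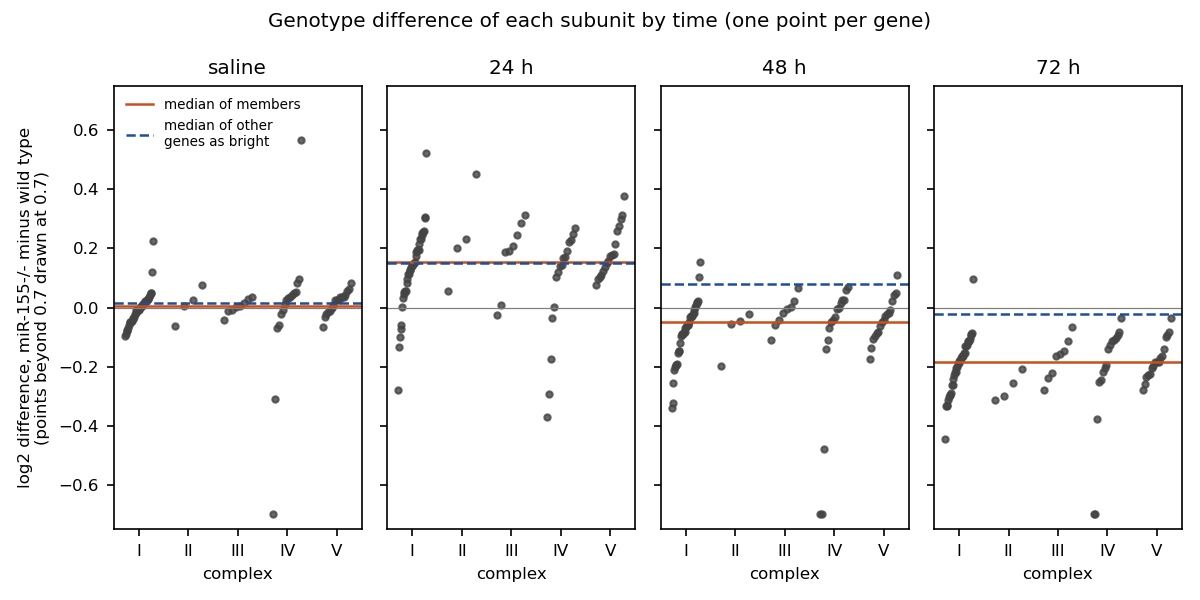
Difference of miR-155-/- from wild type in log2 units for each member, 1 point per gene, after saline and at 24 h, 48 h and 72 h; the orange line is the median of the members and the blue dashed line that of 1033 other genes as bright, and points beyond 0.7 are drawn at 0.7. The medians of the members and of the other genes are both 0.15 at 24 h and are -0.19 and -0.02 at 72 h.

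Markers of the proximal tubule and of the distal nephron and collecting duct both moved beside the respiratory genes. Of 18 proximal tubule markers, among them Lrp2 (megalin, -2.24 in wild type at 24 h), 17, 6 and 6 were lower at 24 h, 48 h and 72 h in wild type and 17, 15 and 12 in miR-155-/-. Their summed level was 10.15 to 10.32 in wild type saline mice, 9.22 to 9.54 at 24 h, 9.36 to 10.001 at 48 h and 9.95 to 10.17 at 72 h. In miR-155-/- mice the sum was 10.02 to 10.51 after saline, then 9.29 to 9.78, 9.27 to 9.71 and 9.50 to 9.76. Of 16 markers of the distal nephron and collecting duct 13, 8 and 6 were lower in wild type and 12, 13 and 8 in miR-155-/-. Of all genes 17.6%, 11.6% and 12.8% were lower in wild type and 22.5%, 21.1% and 17.5% in miR-155-/-. The distal sum was 8.13 to 8.33 in wild type saline mice, 6.03 to 6.84 at 24 h, 7.16 to 7.48 at 48 h and 7.43 to 7.73 at 72 h. At wild type 24 h the sum of 9 fibroblast markers also lay below saline, 2.44 to 3.32 against 3.43 to 4.17. Sums of the other cell type lists overlapped saline there. The part of all these markers in the lower respiratory subunits was not tested.

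Genes that work with the respiratory chain were counted from lists of the same pathway. The shares of all genes against which these counts stand are 17.6%, 11.6% and 12.8% lower and 21%, 12.2% and 12.5% higher in wild type at the 3 times, and 22.5%, 21.1% and 17.5% lower and 26.6%, 22.7% and 17.7% higher in miR-155-/-. Among 17 genes of the citric acid cycle and pyruvate dehydrogenase, which supply NADH and succinate, 10, 11 and 5 were lower in wild type at the 3 times and 9, 14 and 12 in miR-155-/-, and 0 were higher. Examples at 24 h in wild type were Idh2 (-1.27) and Suclg2 (-1.24). Among 18 electron carriers and enzymes of coenzyme Q synthesis 10, 8 and 6 were lower in wild type and 7, 9 and 7 in miR-155-/-, and 4 were higher in wild type and 1 in miR-155-/- at 24 h. Pdss2, which makes the coenzyme Q tail, differed by -2.47 in wild type at 24 h, and Etfa, of the electron transfer flavoprotein, by -0.76.

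Among 46 assembly factors, which build the complexes and are not part of them, 10, 9 and 13 were lower and 9, 2 and 2 higher in wild type, and 11, 17 and 17 lower and 12, 3 and 1 higher in miR-155-/-. Nubpl, which delivers iron-sulfur clusters to complex I, fell in all 6 comparisons (-2.21 in wild type and -1.68 in miR-155-/- at 24 h). Ndufaf4, Acad9 and Ecsit, all complex I assembly factors, fell in all 6 as well, with differences of -0.91, -0.62 and -0.52 in wild type at 72 h. Ttc19, a complex III factor, rose in all 6, by 0.73 in wild type at 72 h. Most factors named here fell, and the rest are only counted. At 24 h the shares of assembly factors lower and higher were near those of all genes in both genotypes. Genes of the mitochondrial ribosome, which makes the mitochondrially encoded subunits, went both ways: of 77, 11, 16 and 17 were lower and 22, 5 and 4 higher in wild type, and 10, 15 and 26 lower and 37, 12 and 4 higher in miR-155-/-.

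Of 16 regulators of respiratory gene transcription 4, 2 and 2 were lower and 2, 1 and 1 higher in wild type, and 7, 7 and 6 lower and 3, 1 and 1 higher in miR-155-/-. Gabpa, which binds the CCGGAAG letters counted above, was lower in all 6 comparisons (-0.62, -0.56 and -0.53 in wild type, -0.57, -0.76 and -0.79 in miR-155-/-). Esrrg, an estrogen-related receptor, was -2.69 and Sirt3, the mitochondrial deacetylase, -0.82 in wild type at 24 h. The regulators named here all fell, and those that rose are only counted. In wild type the shares lower at 48 h and 72 h were near those of all genes. Whether these genes bear on the members was not tested.

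Of 10 carriers and channels for ATP, phosphate and protons 3, 0 and 0 were lower in wild type and 3, 2 and 2 in miR-155-/-, and 0, 0 and 3 higher in wild type and 2, 0 and 2 in miR-155-/-. The uncoupling proteins Ucp2 and Ucp3 rose by 1.42 and 1.46 in wild type and by 1.75 and 1.76 in miR-155-/- at 72 h, while Slc25a4, the ATP/ADP carrier of heart and muscle, fell by 0.39 in wild type at 24 h. Of 19 glycolysis genes 7, 3 and 3 were lower and 3, 1 and 1 higher in wild type, and 4, 5 and 4 lower and 4, 2 and 3 higher in miR-155-/-. Pdk4, the kinase that turns pyruvate dehydrogenase off, rose by 2.65 in wild type at 24 h and 2.52 in miR-155-/- at 72 h, and Hk2 by 3.16 in the latter. Pdk4 and Hk2 are examples that rose, whereas in wild type more glycolysis genes were lower than higher at each time. In miR-155-/- the shares lower were near those of all genes.

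With normexp in place of the processed signal, some calls given above were lost, with adjusted p by limma of 0.0886 and 0.0955 for Sdha at 24 h in wild type and miR-155-/-, 0.053 for Ndufb6 in wild type at 48 h, 0.0515 for Uqcrc2 and 0.106 for Atp5e in wild type at 72 h, and 0.0534 for Atp5j in miR-155-/- at 24 h. Atp5e in wild type at 72 h was also lost with slide as a block (0.051), and Sdhd in wild type at 24 h with scaling to the array median (0.0687). More than 1 probe was present for 22 of the 85 members, and the brightest was used. Where probes disagreed, the dimmer one gave the larger fall for Ndufb5 (-1.06 against -0.53) and Ndufv3 (-0.74 against -0.63) in wild type at 24 h. Many respiratory subunit genes have processed pseudogenes, and hybridisation of such copies was not tested.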

How the data were processed

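Kidney RNA of 32 mice was read on 32 Agilent 4x44k version 2 arrays. Per the file headers, Feature Extraction 10.7.3.1 (protocol GE1_107_Sep09) made the deposited processed signal, a background-subtracted linear intensity. The authors' deposited value table is that intensity times 1 factor per array, found by setting both side by side.

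Symbols came through each probe's transcript accession from a RefSeq table (GRCm38.p6), for 27234 of 39429 probes (69.1%). Log2 of that signal was used after each array's 75th percentile over its 43020 non-control spots (1531 to 2647 intensity units) had been subtracted. Spots with an outlier flag, 59 to 976 an array, were left out, and 0 were saturated. The brightest probe stood for a gene. A gene was tested if above background on all 4 arrays of a group with at least 3 values in each, which kept 23759 of 32451, with 970 missing values, 5 of them in members. The number of arrays limits the precision.

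Tests used limma 3.58.1 under R 4.3.3 on group means over all arrays (eBayes with trend; 24 residual and 3.8 prior degrees of freedom), 2-sided, with Benjamini-Hochberg adjustment within each of 15 comparisons. The test was tried on simulated data. A ± is the standard error of a difference. Values by array, for all or only some of the groups, are given for complex II, most of the isoforms, and each complex's largest called fall and rise in each comparison with saline. Pathway examples were called genes of small adjusted p, and some others were named after their values were seen. Alternatives were normexp (offset 50, on gMedianSignal, since gMeanSignal was not among the columns), quantile and median scaling, the authors' table, no filter, the mean of probes, slide or replicate number as a block, array weights, no trend, the compared groups alone and leaving out each array. Single genes not reported here by name still enter the counts and medians. The members and lists were chosen with earlier results of these data known.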

Additional observations from a re-analysis of the deposited data

Results flagged for a closer look

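The levels of 21 members (complex II, the isoforms and each complex's largest called falls and rises) and the means over each complex and over all members made 216 groups of 4 arrays. Of these groups 10 held an array whose gap to the nearest of the others was above Dixon's critical value of 0.829 of the whole range. Chance gives about 1 in 20 such groups.

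Low outliers were Cox6b2 in miR-155-/- 48 h, where replicate 3 was at -0.77 and the others at 1.15 to 1.26, and Atp5a1 in miR-155-/- 24 h, where replicate 2 was at 5.79 and the others at 6.14 to 6.19. Ndufb6 in miR-155-/- 24 h had replicate 3 at 4.46 against 4.61 to 4.63, Uqcrfs1 in miR-155-/- 72 h had replicate 1 at 4.69 against 4.80 to 4.81, and Cox4i2 in miR-155-/- 72 h had replicate 4 at -2.26 against -2.10 to -2.09. High outliers were Atp5j in wild type saline mice, with replicate 1 at 5.16 against 5.0 to 5.02, and Ndufab1 in wild type 48 h, with replicate 1 at 0.79 against 0.69 to 0.70.

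Of the means over a complex, as differences from saline, complex I in wild type 24 h was -0.38 in replicate 4 against -0.32 in the others. Complex III in miR-155-/- 72 h was -0.42 in replicate 3 against -0.34 to -0.32, and complex IV there was -0.084 in replicate 4 against -0.26 to -0.25.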

How the results depend on the processing

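No called result reversed under any alternative run. Counts of members called moved by over 1.5 times as follows. With normexp, which also moved the median of all genes to 0.26 in wild type 24 h and 0.31 in miR-155-/- 48 h, the counts were 32, 8 and 6 in wild type at 24 h, 48 h and 72 h (as reported 61, 26 and 17), 22 from 24 h to 72 h in wild type (51), 9 and 24 in miR-155-/- at 24 h and 72 h (28 and 41) and 6 from 24 h to 72 h there (11). With quantile normalization they were 27 in wild type 72 h, 31 from 24 h to 72 h in wild type and 61 in miR-155-/- 24 h. Scaled to the array median they were 32, 13 and 10 in wild type, 28 from 24 h to 72 h and 12 in miR-155-/- 24 h. Array weights gave 27 in wild type 72 h, 28 between the genotypes at 72 h and 2 in the interaction at 72 h, and the compared groups alone gave 20 in miR-155-/- 48 h (41). The cause was not tested.

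Leaving out each array in turn gave 48 to 64, 14 to 29 and 13 to 16 called in wild type at 24 h, 48 h and 72 h, 22 to 38, 29 to 50 and 31 to 48 in miR-155-/-, 29 to 49 and 8 to 15 from 24 h to 72 h in wild type and miR-155-/-, and 0 between the genotypes and in the interactions. The median over the members from 24 h to 72 h in miR-155-/- was -0.077 as reported and 0.0011 with quantile normalization. Of the values of the named members under the alternatives that kept all arrays, 845 kept their direction and side of the threshold, 49 lost and 30 gained the call, and on leaving out single arrays 618 kept them, 49 lost and 5 gained it.

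In 0 of 12 comparisons did all 4 pairs of the same replicate number deviate together with a correlation over 0.1, so the numbers were not used as pairs. In wild type 48 h against saline 3 of 4 pairs did, up to 0.52, and so few pairs cannot exclude a pairing. With the replicate block the counts were 60, 25 and 17 in wild type and 28, 40 and 40 in miR-155-/-, and 0 between the genotypes.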
